A study of Homo sapiens with 12 samples.

Results

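The miR-15/16 family is a group of miRNAs that share a seed, the bases near the 5′ end that pair with a target mRNA, and are known for repressing cyclins and the apoptosis inhibitor BCL2. Its 8 precursor genes, MIR15A, MIR16-1, MIR15B, MIR16-2, MIR195, MIR497, MIR424 and MIR503, were chosen by gene name and are 8 of the 1881 miRNA genes counted. They were followed in A375, a BRAF-mutant melanoma cell line that responds to the BRAF inhibitor dabrafenib, and in A375-BIR, a line selected from A375 by culture in rising dabrafenib. Cultures of each line received 200 nM dabrafenib or its vehicle (0.1% DMSO) for 48 h, and small RNA was sequenced from 3 biological replicates of each line and treatment, 12 libraries in all. The comparisons ask how the lines differ in each medium, how each line responds to the drug, and whether the responses differ. Both lines grew in RPMI with serum, the vehicle libraries lack the drug but not DMSO, and the labels do not say whether A375-BIR is a single clone or a mixed population.

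The 12 libraries differed in depth by treatment. In DMSO the median total of expected counts was 86898 for A375 (range 77264 to 121802) and 120625 for A375-BIR (range 106427 to 122792). In dabrafenib it was 47507 for A375 (range 36955 to 51532) and 47607 for A375-BIR (range 35070 to 59899). With 0 counts in a library, 3 counts is the upper limit, and as CPM by total counts, without TMM, that limit ranged from 24.4 to 85.5 over the libraries. The 17 precursors that share at least 18 bases in a row with pre-rRNA took a larger share of the dabrafenib libraries: 20.9% to 26.3% against 3.22% to 5.59% of the DMSO libraries for A375, and 14.4% to 16.9% against 2.65% to 4.57% for A375-BIR. Their part in the results below was measured by leaving them out. Intervals and limits given here cover counting error only.

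A miRNA is cut from a hairpin precursor, loaded into an Argonaute protein and guides it to mRNAs through its seed. miR-15 and miR-16 are known to hold cells in G1 by repressing cyclin D1, cyclin E and CDK6, and the loss of their chromosome 13 locus in chronic lymphocytic leukaemia is the textbook case of a miRNA tumour suppressor. miR-424 and miR-503 are known to repress some of the same cell-cycle genes and to rise as cells leave the cycle, and MAPK signalling, which dabrafenib blocks in BRAF-mutant cells, drives cyclin D1 in melanoma.

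The 5p mature sequences are shown because they define the family and because 2 of the 8 genes give the same miRNA. They are from RefSeq (GRCh38.p14), which held all 8 members, and are written 5′ to 3′ with the seed, bases 2 to 8, in capitals.
miR-15a-5p: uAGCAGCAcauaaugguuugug
miR-15b-5p: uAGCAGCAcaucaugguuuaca
miR-16-5p: uAGCAGCAcguaaauauuggcg
miR-195-5p: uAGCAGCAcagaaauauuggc
miR-497-5p: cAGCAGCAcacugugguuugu
miR-424-5p: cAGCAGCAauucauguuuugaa
miR-503-5p: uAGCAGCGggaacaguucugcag

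Of the 7 distinct mature sequences, 6 have the seed AGCAGCA, and miR-503-5p has AGCAGCG. Outside the seed they diverge, so that reads of most members can be told apart. miR-15a-5p and miR-15b-5p differ at 4 of 22 bases, miR-15b-5p and miR-16-5p at 8 of 22, and miR-16-5p and miR-195-5p at 2 of 21. The exception is miR-16-5p, which comes from both MIR16-1 and MIR16-2. Their hairpins share a run of 23 bases, while no other pair of hairpins in the family shares more than 12.
MIR16-1 hairpin: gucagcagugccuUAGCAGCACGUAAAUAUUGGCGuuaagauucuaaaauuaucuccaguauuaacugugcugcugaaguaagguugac
MIR16-2 hairpin: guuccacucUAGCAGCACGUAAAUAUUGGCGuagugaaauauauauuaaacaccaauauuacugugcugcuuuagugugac
These hairpins are shown, with miR-16-5p in capitals, because the reads of that sequence were divided between the genes by the RSEM counting program, and values of MIR16-1 and MIR16-2 are not independent. Counts are per precursor, so the 5p and 3p arms are not told apart in any value here.

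The members lie in 4 pairs in hg38. MIR15A (ENSG00000283785.1, chromosome 13, 50049119 to 50049201, minus strand) and MIR16-1 (ENSG00000208006.1, 50048973 to 50049061) are 57 bases apart in introns of the long non-coding RNA gene DLEU2. MIR15B (ENSG00000207779.1, chromosome 3, 160404588 to 160404685, plus strand) and MIR16-2 (ENSG00000198987.1, 160404745 to 160404825) are 59 bases apart in introns of SMC4, which encodes a condensin subunit used in mitosis. MIR195 (ENSG00000284112.1, chromosome 17, 7017615 to 7017701, minus strand) and MIR497 (ENSG00000284027.1, 7017911 to 7018022) are 209 bases apart and lie within MIR497HG. MIR424 (ENSG00000284231.1, chromosome X, 134546614 to 134546711, minus strand) lies in no annotated gene, and MIR503 (ENSG00000208005.1, 134546328 to 134546398), 215 bases away, lies in an intron of MIR503HG. Host transcripts were not measured in these libraries.

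As a whole the family was a small share of each library. It took 0.0612% ± 0.0064 (SD, n = 3) of the counts in A375 in DMSO, 0.0402% ± 0.0191 in A375 in dabrafenib, 0.183% ± 0.0262 in A375-BIR in DMSO and 0.121% ± 0.0179 in A375-BIR in dabrafenib. These shares are of total counts. Levels below are CPM scaled by the library total and the TMM factor, which ranged over 0.69 to 0.82 for the dabrafenib libraries of A375 and over 1.05 to 1.19 for all others. A lower level in these bulk cultures can be fewer cells with a miRNA or less of it per cell, which cannot be told apart.

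On chromosome 3, MIR15B had the clearest pattern of the family. In A375 it stood at 166, 158 and 146 CPM in the DMSO libraries (157 ± 10.2, SD, n = 3) and at 25.8, 83.9 and 65.9 CPM in dabrafenib (58.5 ± 29.7), from 49 and 6 counts. In A375-BIR it stood at 629, 505 and 706 CPM in DMSO (613 ± 101) and at 189.6, 253 and 381 CPM in dabrafenib (275 ± 97.4), from 238 and 43 counts. From high to low the groups were A375-BIR in DMSO, A375-BIR in dabrafenib, A375 in DMSO and A375 in dabrafenib, and no neighbours in that order overlapped. The highest A375 library lay below the lowest A375-BIR library, and in each line every dabrafenib library lay below every DMSO library, with TMM and with total counts alone.

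MIR16-2, the neighbour of MIR15B, had less separation. Its levels in A375 were 154, 120.4 and 125 CPM in DMSO (133 ± 18.4, SD, n = 3) and 155, 349.6 and 115 CPM in dabrafenib (207 ± 125). Its levels in A375-BIR were 301, 342 and 399.6 CPM in DMSO (348 ± 49.6) and 284, 216 and 381 CPM in dabrafenib (294 ± 82.8). The order was A375-BIR in DMSO, A375-BIR in dabrafenib, A375 in dabrafenib and A375 in DMSO, and each neighbouring pair overlapped, although the DMSO groups of the lines did not. A375 in dabrafenib, replicate 2, was far above the other libraries of its group.

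On chromosome 13, MIR16-1, which gives the same mature miR-16-5p, had levels of 107, 113 and 104 CPM in A375 in DMSO (108 ± 4.46, SD, n = 3) and of 51.7, 238 and 115 CPM in A375 in dabrafenib (135 ± 94.6). In A375-BIR its levels were 238, 249 and 343 CPM in DMSO (277 ± 57.6) and 230, 171 and 241 CPM in dabrafenib (214 ± 37.3). The groups stood in the same order as for MIR16-2 with overlap of neighbours, and replicate 2 of A375 in dabrafenib was again the high library. Both copies summed gave 261, 233 and 229 CPM in A375 in DMSO, 207, 587 and 231 in A375 in dabrafenib, 539, 591 and 742 in A375-BIR in DMSO and 515, 388 and 622 in A375-BIR in dabrafenib. For the sum the lines did not overlap in DMSO and overlapped in dabrafenib, though with total counts alone they did not overlap in dabrafenib either.

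MIR15A, the founding member of the family with miR-16, had few counts. They were 4, 2 and 5 in A375 in DMSO, 0, 2 and 0 in A375 in dabrafenib, 5, 7 and 10 in A375-BIR in DMSO and 0, 0 and 0 in A375-BIR in dabrafenib. As levels these were 38.2 ± 20.2 CPM (SD, n = 3) in A375 in DMSO, 18.6 ± 32.3 in A375 in dabrafenib and 56 ± 11.9 in A375-BIR in DMSO. In A375-BIR every DMSO library had at least 5 counts and every dabrafenib library none. The order of levels was A375-BIR in DMSO, A375 in DMSO, A375 in dabrafenib and A375-BIR in dabrafenib, and each neighbouring pair overlapped.

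On chromosome X, MIR424 separated the lines and not the treatments. In A375 its levels were 83.1, 105 and 73.0 CPM in DMSO (87.1 ± 16.6, SD, n = 3) and 51.7, 112 and 32.9 CPM in dabrafenib (65.5 ± 41.2). In A375-BIR they were 332, 311 and 206 CPM in DMSO (283 ± 67.8) and 271, 268 and 281 CPM in dabrafenib (273.3 ± 6.52). In the order A375-BIR in DMSO, A375-BIR in dabrafenib, A375 in DMSO and A375 in dabrafenib, the groups of one line overlapped and A375-BIR in dabrafenib did not overlap A375 in DMSO. With total counts alone the A375 groups did not overlap either.

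MIR503, with its variant seed, was sparse. Its counts were 5, 1 and 1 in A375 in DMSO, 2, 1 and 0 in A375 in dabrafenib, 8, 12 and 8 in A375-BIR in DMSO and 3, 3 and 2 in A375-BIR in dabrafenib. The levels were 25.8 ± 29.1, 26.6 ± 25.9, 73.3 ± 19.3 and 55.4 ± 22.5 CPM (SD, n = 3) in these groups. All neighbouring groups in order of level overlapped, and the lines overlapped in DMSO because of replicate 1 of A375 at 59.3 CPM, though with total counts alone they did not.

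The chromosome 17 pair was almost absent. MIR497 had 0 counts in all 12 libraries, which allows, by total counts without TMM, up to 7.11 CPM over the pooled libraries of A375 and up to 6.09 CPM over those of A375-BIR. MIR195 had at most 2 counts in a library, 6 counts in all in A375 and 4 in A375-BIR, and its groups overlapped throughout. The ratio of A375-BIR to A375 for MIR195 was 0.571 by total counts, with an exact 95% interval from 0.119 to 2.41.

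**Figure D1:**
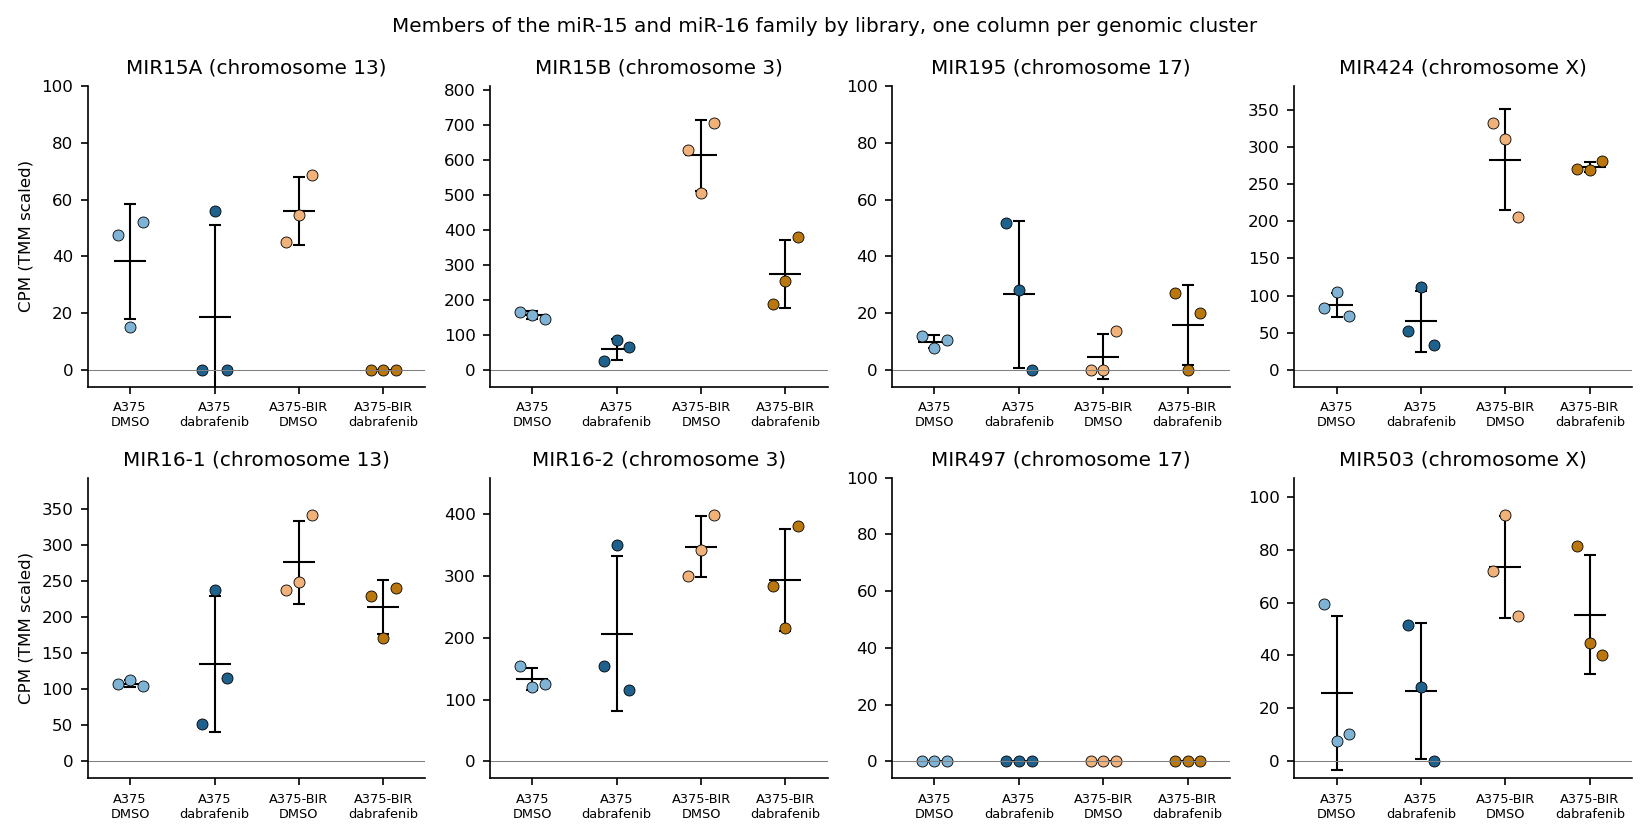
Level of each member in each library (CPM, scaled by total and TMM factor), with the group mean and SD (n = 3) and 1 column per genomic pair. MIR15B ranges from 25.8 to 166 CPM in A375 and from 189.6 to 706 CPM in A375-BIR, and MIR497 is at 0 in all 12 libraries.

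The lines in DMSO come first among the comparisons because those libraries were the deepest. In DMSO, miR-15b, both copies of miR-16 and miR-424 were lower in A375 than in A375-BIR under TMM, DESeq2's size factors, total counts and with the rRNA-like precursors left out, and the direction did not turn under any of them. Of the 8 members, 4 had enough counts to be tested (a filter at 146 CPM by total counts, which is 10 counts in a library of median size, in about as many libraries as a group holds), and MIR15A, MIR195, MIR497 and MIR503 did not. The filter leaned on A375-BIR: MIR424 reached 146 CPM in the 6 A375-BIR libraries alone, MIR16-1 in these and 1 of A375, MIR16-2 in these and 2 of A375, and MIR15B in these and the 3 A375 libraries in DMSO. Without A375-BIR only MIR15B would have been admitted, so MIR424, MIR16-1 and MIR16-2 entered through the line where they are high, and a count over the tested members says little about the family. For these 3 the calls between the lines are given from a filter of 1 CPM in 3 libraries, which their A375 libraries pass as well. At these depths 1 CPM is under 1 count, so that filter asks only for a count in 3 libraries.

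For MIR15B the log2 fold change of A375 over A375-BIR was -1.96 (SE 0.26, adjusted p = 3.14e-05, by the quasi-likelihood test of edgeR, adjusted after Benjamini-Hochberg for 175 precursors). MIR424 had -1.65 (SE 0.32), and with the filter of 1 CPM in 3 libraries -1.69 (SE 0.39, adjusted p = 1.96e-04, or 4.05e-04 with no filter). MIR16-2 had -1.39 (SE 0.31), and with that filter -1.43 (SE 0.34, adjusted p = 3.69e-04, or 5.86e-04 with no filter). MIR16-1 had -1.34 (SE 0.33), and with that filter -1.37 (SE 0.38, adjusted p = 0.00242, or 0.00393 with no filter). DESeq2's Wald test gave adjusted p of 0.00625, 0.0114 and 0.0283 for MIR424, MIR16-2 and MIR16-1. They entered that fit through A375-BIR, so no call is taken from it. Summed over both copies, miR-16 gave -1.38 (SE 0.29, adjusted p = 0.00125). For MIR15B, MIR424, both copies of miR-16 and their sum, all 3 A375 libraries were below all 3 A375-BIR libraries. The background was high: of the 175 tested precursors 30.3% were called lower in A375 in DMSO and 16.0% higher, and 33.7% had A375 libraries all below those of A375-BIR. With the filter of 1 CPM in 3 libraries 67 of 538 precursors were called lower and 37 higher. With no filter 65 of 839 were called lower and 31 higher. From the lowest log2 fold change up, MIR15B was 13th of 175, against a median over all of -0.16. The MIR15B call held in each of the 12 fits that left out 1 library.

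With DESeq2's size factors the median over all tested precursors in DMSO moved by 0.16 on the log2 scale. The split of calls went from 28 higher and 53 lower to 38 and 43. MIR15B then stood at -1.78, past the threshold. MIR424 stood at -1.49, MIR16-2 at -1.22 and MIR16-1 at -1.16. MIR424, MIR16-2 and MIR16-1 entered that fit through A375-BIR, so no call between the lines is taken from it for them.

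In dabrafenib the lines differed in miR-15b and miR-424 and, under TMM, not detectably in miR-16. MIR15B was the lower one in A375 at -2.25 on the log2 scale (SE 0.45, adjusted p = 0.00112) and 3 A375 libraries below the 3 of A375-BIR, lower under all scalings. MIR424 had -2.01 (SE 0.46), also lower under all scalings and with no overlap. With the filter of 1 CPM in 3 libraries MIR424 had -2.24 (SE 0.56, adjusted p = 8.17e-04), and with no filter an adjusted p of 0.00185. DESeq2's Wald test, in a fit that MIR424 entered through A375-BIR, gave 0.0134. MIR16-1 had -0.64 (SE 0.45, adjusted p = 0.281) and MIR16-2 -0.43 (SE 0.38, adjusted p = 0.394). With the filter of 1 CPM in 3 libraries they had -0.88 (adjusted p = 0.286) and -0.68 (adjusted p = 0.347). In the fit that both entered through A375-BIR, total counts gave -1.12 (adjusted p = 0.0495) and -0.92 (adjusted p = 0.0528). For MIR16-1 the adjusted p over the alternatives other than left-out libraries ran from 0.0495 to 0.491. With a library left out, MIR16-1 ran from -1.24 to -0.29 (adjusted p 0.0701 to 0.723) and MIR16-2 from -0.96 to -0.16 (0.0961 to 0.826). Among all tested precursors 22.3% were called lower and 24% higher in A375 in dabrafenib, and 25.7% had no overlap with A375 below. With the filter of 1 CPM in 3 libraries 57 of 538 were called lower and 33 higher. With no filter 54 of 839 were called lower and 31 higher. MIR15B was 7th from the lowest of 175, with a median over all of -0.03. That median moved by -0.47 with total counts, which turned 42 higher and 39 lower calls into 24 and 58, and by -0.20 without the rRNA-like precursors, which gave 28 and 42.

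Whether the line difference of miR-16 was smaller in dabrafenib than in DMSO is the same test as the difference between the drug responses, which did not pass for either copy (values below).

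Averaged over both treatments, log2 fold changes of A375 over A375-BIR were -2.10 for MIR15B (SE 0.26, adjusted p = 9.14e-06), -1.83 for MIR424 (SE 0.28), -0.99 for MIR16-1 (SE 0.28) and -0.91 for MIR16-2 (SE 0.24), lower under every scaling. With the filter of 1 CPM in 3 libraries MIR424 had -1.97 (SE 0.34, adjusted p = 1.27e-07), MIR16-1 -1.13 (SE 0.32, adjusted p = 0.00230) and MIR16-2 -1.05 (SE 0.28, adjusted p = 8.80e-04). With no filter these adjusted p were 3.38e-07, 0.00394 and 0.00159. In the fits of all libraries that these 3 entered through A375-BIR, the adjusted p ran to 1.49e-04, 0.0316 and 0.0268. All 6 A375 libraries were below all 6 A375-BIR libraries for MIR15B and for MIR424, which was admitted through A375-BIR, as for 16.0% of the tested precursors. Of the tested precursors 34.3% were called lower in this comparison. With the filter of 1 CPM in 3 libraries 85 of 538 were called lower and 49 higher. With no filter 81 of 839 were called lower and 47 higher. The median over all was -0.11, and total counts moved it by -0.23, DESeq2's size factors by 0.11 and leaving out the rRNA-like precursors by -0.12. With total counts the calls went from 45 higher and 60 lower to 35 and 72, and MIR16-1 then also had no overlap of 6 against 6 libraries.

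MIR503 was too low for that fit and was compared by an exact permutation of the line labels within each treatment (400 arrangements, smallest possible p 0.005, two-sided). Its level was lower in A375 by a mean difference of -38.2 CPM over the treatments (p = 0.03, exact permutation), and by -45.3 CPM with total counts alone (p = 0.01, exact permutation). These p are not adjusted for the 3 members tested in this way. With the wider filters that admit MIR503, the edgeR test did not call it over both treatments. It had -1.35 (adjusted p = 0.138 over 538 precursors) and -1.36 (adjusted p = 0.196 over 839) on the log2 scale. The permutation p rose to 0.065 without replicate 1 or replicate 2 of A375-BIR in DMSO, to 0.07 without replicate 1 of A375-BIR in dabrafenib, to 0.05 without replicate 2 or replicate 3 of A375 in DMSO, to 0.065 without replicate 2 of A375 in dabrafenib and to 0.07 without replicate 3. In pooled counts, A375-BIR had 3.08 times the MIR503 of A375 (exact 95% interval 1.50 to 6.97, from 36 against 10 counts). MIR15A and MIR195 did not differ beyond the spread in the same exact permutation test, with mean differences of 0.451 CPM (p = 0.9), a sign that turns to -3.65 CPM with total counts, and 8.11 CPM (p = 0.36).

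**Figure D2:**
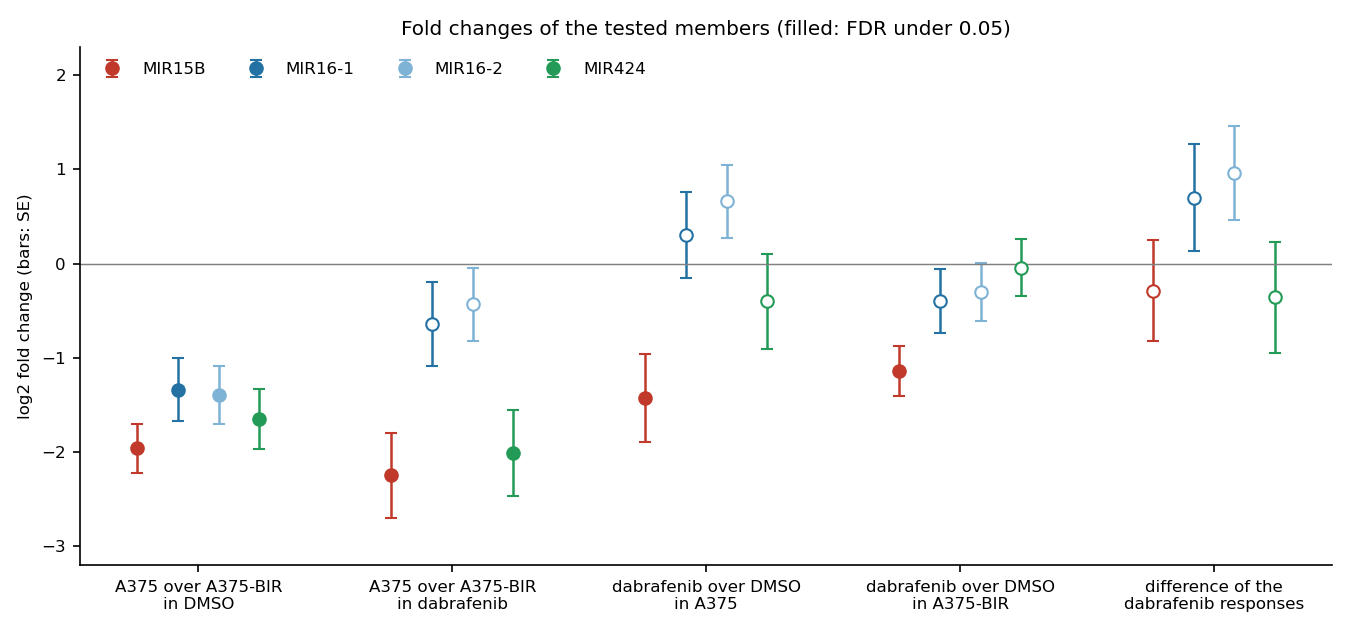
Log2 fold change of the 4 tested members in each comparison, with bars of 1 SE from edgeR. Filled points have an adjusted p under 0.05. MIR424, MIR16-1 and MIR16-2 entered the fit through A375-BIR. Their calls between the lines are therefore those from the filter of 1 CPM in 3 libraries, not the filled points. Under all scalings the 4 lie below 0 for A375 over A375-BIR in DMSO (-1.96 to -1.34 with TMM), and for dabrafenib in A375 MIR15B alone is filled while MIR16-1 turns from 0.30 to -0.21 with total counts.

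The drug comparisons ask what 48 h of dabrafenib did within a line. In A375, MIR15B fell under each scaling, and no other tested member passed the threshold. From 157 CPM in DMSO and 58.5 CPM in dabrafenib, MIR15B had a log2 fold change of -1.42 (SE 0.47, adjusted p = 0.0351), lower in 3 of 3 libraries. MIR424 had -0.40 (SE 0.51, adjusted p = 0.605), MIR16-1 0.30 (SE 0.45, adjusted p = 0.642), which turned to -0.21 with total counts, and MIR16-2 0.66 (SE 0.39, adjusted p = 0.248). In this comparison 6.86% of the tested precursors were called lower (12, or 7 without replicate 1 of A375 in DMSO) and 18.3% higher, and 17.1% had dabrafenib libraries all below DMSO. MIR15B was 7th from the lowest of 175, against a median over all of 0.14.

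The MIR15B call in A375 was fragile to single libraries. Without replicate 1 of A375 in dabrafenib, where it had 1 count, the log2 fold change was -1.04 (adjusted p = 0.218). It was -1.51 without replicate 3 of that group (adjusted p = 0.0770), -1.39, -1.41 and -1.47 without replicate 1, 2 and 3 of A375 in DMSO (adjusted p = 0.0712, 0.0826 and 0.0619) and -1.44 without replicate 1 of A375-BIR in DMSO (adjusted p = 0.0537). DESeq2's Wald test gave -1.66 (adjusted p = 0.0738), and over the alternatives other than left-out libraries the adjusted p ran from 0.00533 to 0.0738. In pooled counts DMSO had 3.88 times the MIR15B of dabrafenib in A375 (exact 95% interval 1.66 to 11.1, 49 against 6 counts).

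The median over all tested precursors in this comparison moved by -0.50 with total counts, by -0.20 with DESeq2's size factors and by -0.16 without the rRNA-like precursors, and the calls, 32 higher and 12 lower with TMM, became 18 and 44, 23 and 23, and 19 and 17. MIR15B was lower under each, at -1.92, -1.63 and -1.55.

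In A375-BIR, MIR15B also fell under each scaling, with a log2 fold change of -1.14 (SE 0.27, adjusted p = 0.00752) and 3 of 3 dabrafenib libraries below DMSO. MIR16-1 had -0.40 (SE 0.34, adjusted p = 0.446), MIR16-2 -0.30 (SE 0.31, adjusted p = 0.537) and MIR424 -0.04 (SE 0.31, adjusted p = 0.976). Among the tested precursors 7.43% were called lower and 13.1% higher, and 18.3% had no overlap with dabrafenib below. The 13 lower calls behind that share became 2 without replicate 1 of A375-BIR in DMSO, 6 without replicate 2 of it, 2 without replicate 2 of A375-BIR in dabrafenib, 7 without replicate 3 of it, 8 by DESeq2's Wald test, 28 with the filter of 1 CPM in 3 libraries and 1 with only the libraries compared. MIR15B was 4th from the lowest of 175, with a median over all of -0.04. DESeq2's size factors changed the calls from 23 higher and 13 lower to 23 and 20. Leaving out the rRNA-like precursors gave 13 higher and 11 lower, and the replicate block gave 20 and 6. Without replicate 1 of A375-BIR in DMSO the MIR15B log2 fold change was -1.03 (adjusted p = 0.0522), and without replicate 2 of A375-BIR in dabrafenib it was -0.97 (adjusted p = 0.0792). In a fit of the A375-BIR libraries alone it was -1.05 (adjusted p = 0.0801). Over the alternatives other than left-out libraries, this fit among them, the adjusted p ran from 0.00113 to 0.0801, and DESeq2's Wald test gave 0.0194.

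MIR15A went from 22 counts in the DMSO libraries of A375-BIR to 0 in its dabrafenib libraries, at least 2.99-fold lower by total counts with the limit of 3 counts taken over the group. The bound was 1.73 without replicate 2 and 1.99 without replicate 3 of A375-BIR in dabrafenib. With wider filters that admit MIR15A, the edgeR test called it in this comparison (adjusted p = 0.0244 over 538 precursors and 0.0332 over 839). In these fits 28 of the 538 and 17 of the 839 were called lower. MIR15A had log2 fold changes of -5.31 (SE 1.68) and -5.33 (SE 1.65), measured against a group at 0 counts. In A375 it had 11 counts in DMSO and 2 in dabrafenib, a ratio of 2.62 with an exact 95% interval from 0.571 to 24.3, and the test of a difference between the lines gave adjusted p = 0.592 and 0.975 with the same filters.

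The drug responses of the lines were then compared with each other. None of the 4 tested members passed in edgeR's test of the difference, 0 had an unadjusted p under 0.05 and 0 were called by DESeq2's Wald test, while 3.43% of all tested precursors were called. The difference of log2 fold changes, A375 minus A375-BIR, was -0.29 for MIR15B (SE 0.54, adjusted p = 0.871), 0.96 for MIR16-2 (SE 0.50, adjusted p = 0.321), 0.70 for MIR16-1 (SE 0.57, adjusted p = 0.601) and -0.36 for MIR424 (SE 0.59, adjusted p = 0.807). The median over all was 0.17, which moved by -0.46 with total counts, -0.12 with DESeq2's size factors and -0.24 without the rRNA-like precursors. The 6 calls, 5 higher and 1 lower, became 0 and 1 with total counts and 1 and 1 without the rRNA-like precursors. They fell to 2 without replicate 2 of A375-BIR in dabrafenib. Without replicate 1 of A375 in DMSO, or replicate 1 or 2 of A375 in dabrafenib, they fell to 3. With an SE of 0.54 for MIR15B, a modest difference between the lines was not detectable at this depth.

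**Figure D3:**
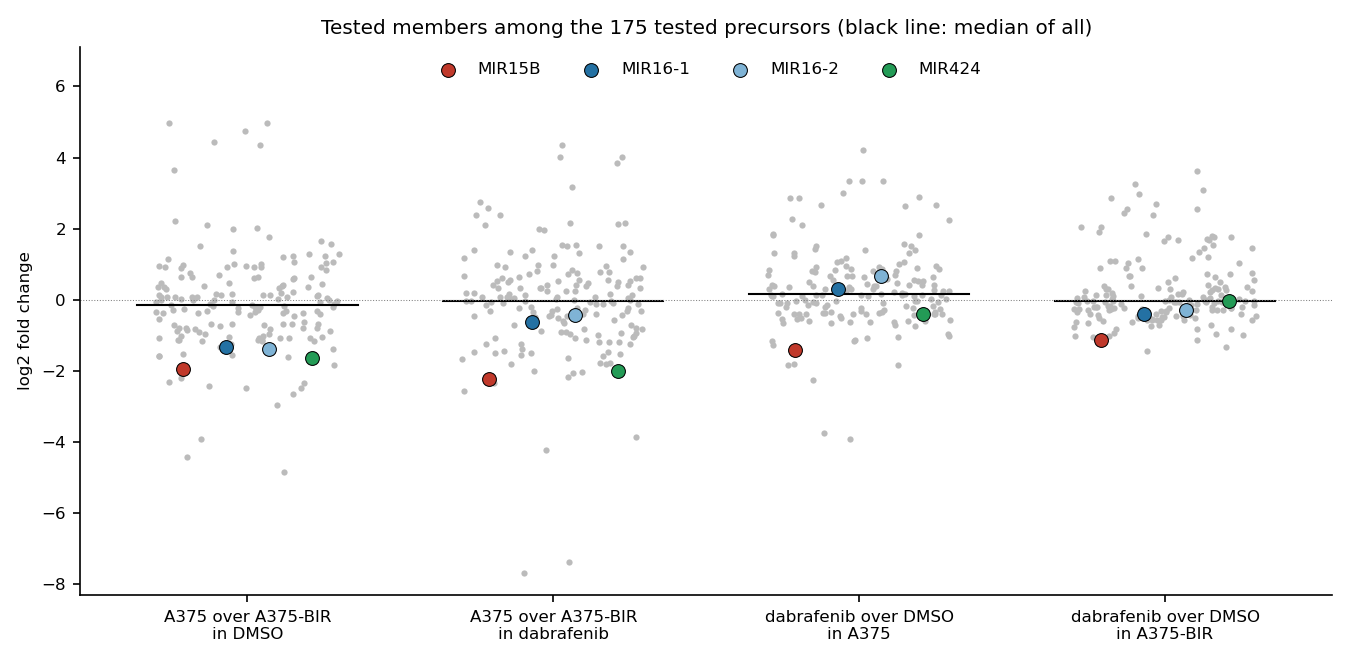
Log2 fold changes of the 175 tested precursors (grey points, black line at their median) with the 4 tested members in colour, for each line and drug comparison. MIR15B is among the 13 lowest in each, and under all scalings it is below 0; MIR16-1 in A375 changes sign with total counts.

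miR-15b and miR-16 are neighbours at the chromosome 3 locus, so their counts were also compared within each library, where scaling cancels. The share of MIR15B in the counts of MIR15B, MIR16-1 and MIR16-2 together was a quantity chosen after the values were seen. In A375 in DMSO it was 38.9% (exact 95% interval 23.1 to 56.5), 40.4% (27 to 54.9) and 38.9% (23.1 to 56.5). In A375 in dabrafenib it was 11.1% (0.281 to 48.2), 12.5% (2.66 to 32.4) and 22.2% (2.81 to 60.0). Each of these was below each DMSO library, though the interval of a single library is wide. In A375-BIR in DMSO the share was 53.8% (44.9 to 62.6), 46.1% (37.7 to 54.7) and 48.7% (41.9 to 55.8). In A375-BIR in dabrafenib it was 26.9% (11.6 to 47.8), 39.5% (25 to 55.6) and 38.0% (24.7 to 52.8).

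In both lines the share was lower in every dabrafenib library than in any DMSO library, and in both treatments lower in every A375 library than in any A375-BIR library. The group means were 39.4% ± 0.864 and 15.3% ± 6.05 (SD, n = 3) in A375 in DMSO and dabrafenib, and 49.6% ± 3.94 and 34.8% ± 6.88 in A375-BIR. Averaged over lines, dabrafenib was 19.4 percentage points below DMSO, a difference of -19.4. Averaged over treatments, A375 minus A375-BIR was -14.9 points. Because the share was chosen after this separation was seen, no p is given for it. With MIR16-2 alone as the miR-16 count these were -23.3 and -17.1 points, and with MIR16-1 alone -20.4 and -16.6. In pooled counts MIR15B was 49 of 124 in A375 in DMSO, 6 of 42 in A375 in dabrafenib and 43 of 119 in A375-BIR in dabrafenib. A lower share says that MIR15B and miR-16 moved unequally and not which of them moved, and whether the response of the share differed between the lines was not tested.

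**Figure D4:**
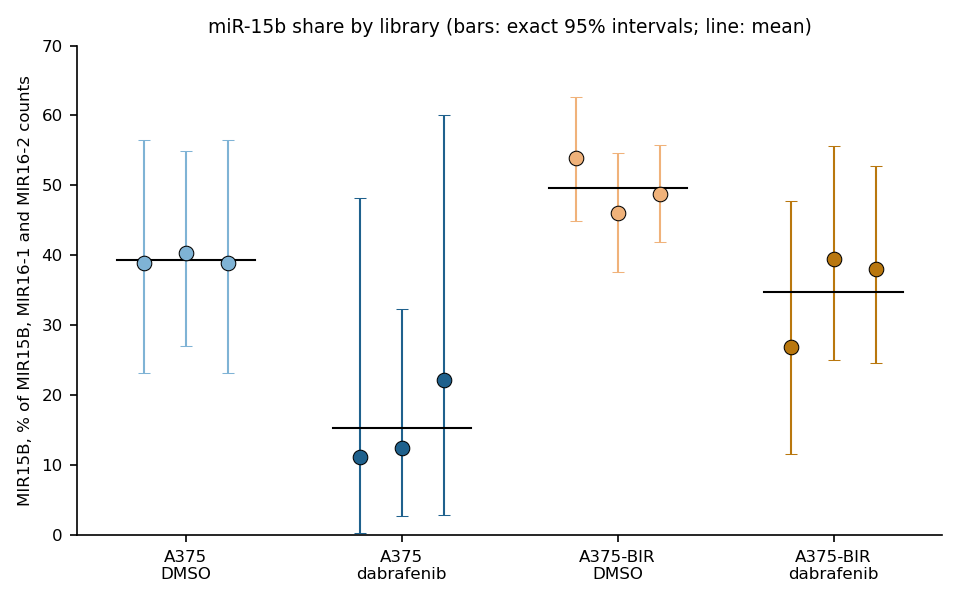
Share of MIR15B in the summed counts of MIR15B, MIR16-1 and MIR16-2 in each library (percent), with exact 95% binomial intervals and a line at the group mean. The dabrafenib libraries lie at 11.1 to 22.2% in A375 and 26.9 to 39.5% in A375-BIR, below the DMSO libraries of the same line at 38.9 to 40.4% and 46.1 to 53.8%.

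The patterns of the tested members across the 12 libraries were alike in part. Pearson's r of log2 CPM, as a description over libraries that share lines and treatments, was 0.866 between the miR-16 copies, which share reads, 0.831 between MIR15B and MIR424, and 0.659 between MIR15B and its genomic neighbour MIR16-2. The other pairs lay between 0.766 and 0.798. Outside the family, the 2 tested precursors most like MIR15B were MIR7-3 (r = 0.951) and MIR7-1 (r = 0.951), both copies of miR-7. Those most like MIR424 were MIR1269A (r = 0.955) and MIR29A (r = 0.931). MIR29A was also nearest to MIR16-2 (r = 0.890), before MIR30C2 (r = 0.836), and to MIR16-1 (r = 0.811), before MIR182 (r = 0.766). All r are over 12 libraries.

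Other miRNAs of the same neighbourhoods and functions were described from fixed lists. Next to MIR424 and MIR503 on chromosome X, MIR542, MIR450A1, MIR450A2 and MIR450B were nearly silent: MIR542 had 1 count in A375 and 2 in A375-BIR, all in DMSO, and the other 3 had 0 in all libraries. Of 5 further miRNAs with the shorter AGCAGC motif, 2 had counts and 0 were tested, since all were below the filter. Among these MIR107, a relative that also represses cell-cycle genes, had 3.33 counts in A375 in DMSO, 1.67 in A375 in dabrafenib, 30.67 in A375-BIR in DMSO and 10.58 in A375-BIR in dabrafenib. MIR103A2 had at most 1 count in a group, and MIR103A1, MIR646 and MIR6838 had 0.

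The other miRNAs known to repress G1 cyclins or their kinases were a list of 22, mostly let-7, miR-34 and miR-26 precursors, of which 20 had counts and 17 were tested. Which line carried each listed precursor past the filter was not checked. Calls of listed precursors between the lines may therefore have the limit given for MIR424. In DMSO 6 were called higher and 5 lower in A375, beside 16.0% higher and 30.3% lower among all tested, with a median of -0.16 beside -0.16. MIR34A, a p53 target that represses CDK6 and cyclin D1, had log2 fold changes of -1.61 in DMSO (adjusted p = 6.27e-04) and -1.63 in dabrafenib (adjusted p = 0.00463). MIRLET7C was lower in DMSO (-2.34, adjusted p = 3.16e-08). MIR98, of the let-7 family, was higher in both media (1.50 and 1.50, adjusted p = 5.40e-04 and 0.00133), and MIRLET7B was higher in dabrafenib (1.53, adjusted p = 1.90e-06). In dabrafenib 6 were called higher and 5 lower in A375, beside 24% and 22.3% of all tested (median -0.03, as over all), 3 and 8 with total counts, and 3 higher with a filter of 1 CPM in 3 libraries. The lower count was 2 with DESeq2's size factors, 2 by its Wald test, 8 with only the libraries compared and 2 without replicate 1 or replicate 2 of A375-BIR in dabrafenib or replicate 3 of A375 in dabrafenib. Over both treatments 7 were called higher and 7 lower (7 and 5 by DESeq2), beside 45 higher and 60 lower (34.3%) of the 175 tested, with a median of -0.20 beside -0.11.

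In response to dabrafenib, A375 had 2 of these called higher and 0 lower by edgeR, beside 18.3% and 6.86% of all tested (median -0.15 beside 0.14 over all), while at an unadjusted p under 0.05 the lower ones were 1, by DESeq2 1 and with total counts 8. The count of lower calls was 3 with the filter of 1 CPM in 3 libraries, with no filter and with only the libraries compared, 1 with DESeq2's size factors and with the rRNA-like precursors left out, 1 without replicate 3 of A375-BIR in DMSO and 1 without replicate 2 of A375 in dabrafenib. The higher ones were MIRLET7C, with a log2 fold change of 1.17 (adjusted p = 6.05e-05), and MIRLET7B, with 0.95 (adjusted p = 2.89e-04, or 0.0734 with a filter of 1 CPM in 3 libraries). A375-BIR had 0 called in either direction by edgeR or DESeq2, beside 13.1% higher and 7.43% lower among all tested by edgeR. At an unadjusted p under 0.05 it had 0 higher and 3 lower (median -0.14 beside -0.04), and 1 was called lower with either wider filter.

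The 8 miRNAs known to repress the CDK inhibitors p21 or p27, of which 7 were tested, act in the opposite sense on the cell cycle. For these, too, it was not checked which line carried each past the filter. Their calls and medians between the lines may have the same limit. In DMSO 3 of the 7 were called lower in A375 (2 by DESeq2, and 5 in a fit of the DMSO libraries alone with the replicate block), beside 30.3% of all tested precursors, with a median of -1.05 beside -0.16. They were MIR222 (-1.84, adjusted p = 1.10e-07), MIR221 (-1.14, adjusted p = 2.26e-04) and MIR93 (-1.05, adjusted p = 0.0238). In dabrafenib 3 of the 7 were called lower, 2 by DESeq2 and 6 with total counts, beside 22.3% of all tested, with a median of -1.18 beside -0.03. These were MIR222 (-2.04, adjusted p = 1.12e-07), MIR93 (-0.95, adjusted p = 0.0418) and MIR221 (-0.92, adjusted p = 0.00139). The MIR93 call in DMSO was lost, with adjusted p from 0.0518 to 0.0962, without replicate 1 or 2 of A375-BIR in DMSO, replicate 2 of A375-BIR in dabrafenib or replicate 1 or 3 of A375 in DMSO, with DESeq2's size factors (0.0801) and by its Wald test (0.0551). In dabrafenib it was lost, with log2 fold changes from -1.11 to -0.48 and adjusted p from 0.0501 to 0.277, without replicate 2 or 3 of A375-BIR in dabrafenib, replicate 1 or 2 of A375 in DMSO or replicate 2 or 3 of A375 in dabrafenib, with DESeq2's size factors (0.0859) and by its Wald test (0.0513). Over both treatments 6 of the 7 were called lower, 4 by DESeq2, beside 34.3% of all tested, with a median of -1.03 beside -0.11.

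MIR222 and MIR221 were the 2 of the 7 called lower with dabrafenib in A375, beside 6.86% of all tested, and lower under each scaling, at -0.67 (adjusted p = 0.00379) and -0.61 (adjusted p = 0.0283) on the log2 scale, with a list median of -0.61 beside 0.14 over all. In A375-BIR the same 2 were called, beside 7.43% of all tested (a share that single libraries move, as above), with MIR221 at -0.84 (adjusted p = 0.0066) and MIR222 at -0.47 (adjusted p = 0.0315), with a list median of -0.29 beside -0.04. The MIR221 call in A375 was lost, with adjusted p from 0.0776 to 0.134, without replicate 2 of A375-BIR in dabrafenib, replicate 1 or 2 of A375 in DMSO or replicate 2 or 3 of A375 in dabrafenib. In A375-BIR both calls were lost without replicate 1 of A375-BIR in DMSO (adjusted p = 0.0881 and 0.100) or replicate 2 of A375-BIR in dabrafenib (0.0880 and 0.0792) and in a fit of the A375-BIR libraries alone (0.0801 and 0.0850), and MIR222 alone without replicate 2 of A375-BIR in DMSO (0.0931) or replicate 3 of A375-BIR in dabrafenib (0.0852). In the test of the difference between the responses 0 of the list were called by edgeR, beside 3.43% of all tested. At an unadjusted p under 0.05 there were 0, and 0 were called by DESeq2, with a median of -0.20 beside 0.17.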

How the data were processed

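For each of 12 small RNA libraries the authors deposited expected counts per miRNA precursor gene, made with RSEM 1.2.25 on hg38 after trimming and removal of contaminant reads, and not normalized. The members, the lists and the comparisons were chosen with earlier results of these data known. Gene names are from GENCODE v44 (1877 of 1881 genes matched). After rounding, edgeR 4.0.16 in R 4.3.3 filtered precursors by filterByExpr on the 4 groups (175 kept), scaled by TMM, fitted a mean for each group and ran its quasi-likelihood test, with adjustment by Benjamini-Hochberg among the 175 at a threshold of 0.05. An SE is the size of the log2 fold change divided by the square root of F. The common biological coefficient of variation came to 21.6%. All members were named, with the 2 tested precursors most like each tested member and up to 3 called precursors per list and comparison with the largest log2 fold change.

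Alternatives were a filter of 1 CPM in 3 libraries or none, DESeq2 1.42.0 size factors or total counts for TMM, its Wald test, the 17 rRNA-like precursors left out, only the libraries compared, a replicate block, both miR-16 copies summed, and each library left out. The miR-15b share was added after the data were seen. In DMSO, deviations from the group means correlated at 0.11, 0.22 and 0.30 between A375 and A375-BIR libraries with the same number, though no label ties a number to a batch. The other pairs of groups lay between -0.54 and 0.19, and libraries with unlike numbers were not compared. With the replicate block 4 members were called lower in DMSO, as without it, beside 50 of the 175 tested precursors. With the block and only the DMSO libraries, a fit added later, 4 were called lower, beside 59 of the 175. All but MIR15B entered these fits through A375-BIR. Replicates of a group differed beyond counting noise (chi-square per degree of freedom 2.15 to 24.8). Tables and figures used Python 3.11.15, pandas 2.3.3, scipy 1.17.1 and matplotlib 3.10.9. Target genes were not analysed here.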

Additional observations from a re-analysis of the deposited data

Results flagged for a closer look

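Among the miRNAs known to repress G1 cyclins or their kinases, MIRLET7C stood out because its dabrafenib response differed between the lines, with a log2 fold change of 1.17 in A375, -0.08 in A375-BIR and a difference of 1.25 (SE 0.22, adjusted p = 0.0104 by edgeR's quasi-likelihood test). That difference was 0.76 with total counts (adjusted p = 0.0512, where the alternatives run from 0.00389 to 0.0512) and 1.16 without replicate 2 of A375-BIR in dabrafenib (adjusted p = 0.0662). MIRLET7B stood out for the same reason, with 0.95 in A375, 0.06 in A375-BIR and a difference of 0.89 (SE 0.21, adjusted p = 0.0282), but under the alternatives other than left-out libraries its adjusted p ran from 0.0278 to 0.309, and with 1 library left out it ran from 0.0201 to 0.365, under 0.05 only without replicate 3 of A375-BIR in DMSO, replicate 3 of A375-BIR in dabrafenib or replicate 2 of A375 in DMSO. Mature let-7 sequences differ at few bases, and how RSEM divided their reads between genes was not tested.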

How the results depend on the processing

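In DMSO and over both treatments MIR15B, MIR16-1, MIR16-2 and MIR424 were called lower in A375 under every alternative that tested them and without any single library. Beside them 30.3% and 34.3% of the 175 precursors of the main fit were called lower. With the filter of 1 CPM in 3 libraries it was 67 and 85 of 538. Apart from the wider filters, all but MIR15B were admitted through A375-BIR. In these comparisons MIR15A, MIR195 and MIR503, tested only with the wider filters, were not called. In dabrafenib MIR15B and MIR424 were called throughout, MIR424 being admitted through A375-BIR apart from the wider filters. MIR16-1 was called only with total counts, in the fit it entered through A375-BIR. For dabrafenib in A375 the count of 1 (MIR15B) became 0 with DESeq2's Wald test and 0 with the replicate block (MIR15B adjusted p = 0.0537 with the block, although no label pairs the libraries), and 0 to 1 with a library left out. For dabrafenib in A375-BIR the count of 1 became 2 with a filter of 1 CPM in 3 libraries and 2 with no filter, because MIR15A was then tested and called, 0 with only the libraries compared, and 0 to 1 with a library left out. With the block MIR222 for dabrafenib in A375-BIR had an adjusted p of 0.0600. The cause was not tested.

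The mean CPM difference of MIR503 ran from -46.6 to -31.5 with a library left out. That of MIR15A, never called, was -3.65 with total counts and -8.87 to 6.24 with a library left out. For MIR195 it was 4.73 with total counts and 1.82 to 14.7 with a library left out (p from 0.055 to 0.77, exact permutation). Of the log2 fold changes that turned sign none was past the threshold: MIR16-1 for dabrafenib in A375 was -0.12 with the filter of 1 CPM in 3 libraries, -0.10 with no filter, -0.21 with total counts and -0.30 to 0.72 with a library left out. MIR424 for dabrafenib in A375-BIR was 0.036 with only the libraries compared and -0.26 to 0.16 with a library left out. MIR15B for the difference in response was 0.014 without replicate 1 of A375 in dabrafenib, within -0.67 to 0.01 with a library left out. Among log2 fold changes, counts of calls, exact permutations and miR-15b shares under the alternatives, 1213 values kept their direction and side of the threshold or moved little, 58 became weaker, 1 stronger, 49 moved and 11 turned sign. Many of these values are from fits that MIR424, MIR16-1 and MIR16-2 entered through A375-BIR.

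Depth limits what can be said of MIR15A, MIR195, MIR497 and MIR503, and of each dabrafenib library, where MIR15B in A375 rests on 6 counts in all. The lines are 1 pair, so what belongs to resistance and what to this derivation cannot be told apart. Depth and the share of rRNA-like counts moved with treatment. Both arms of a precursor are counted together, and protein, target mRNA and cell-cycle state were not analysed here.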
